A study of Homo sapiens with 2 samples.

Results

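SR proteins, hnRNPs and paraspeckle proteins are the RNA-binding factors that decide how a nascent transcript is spliced, and the genes of 40 of them, with 2 kinases that act on SR proteins among the 40, were followed on a pair of arrays. The members were chosen by name, but selected on knowledge of these same arrays, in which SFPQ was among the genes with the largest increase, so the differences below are descriptions and none is tested. Of the 40 genes, 37 had at least 1 probe set that the array annotation pairs with that gene alone, which gave 149 probe sets out of 41097 such probe sets and 37 genes out of 19775. SRSF2, HNRNPH2 and ESRP2 had no such probe set and are named without a value.

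Ca9-22 cells, a human gingival squamous carcinoma line, were infected with a PTHLH vector or with an empty vector, lentiviral in both cases, and both populations were selected with blasticidin and used as stably transduced cells. PTHLH encodes parathyroid hormone-like hormone, a secreted ligand, and the arrays were run to find the genes that its expression changes in head and neck carcinoma cells. Total RNA of 1 PTHLH culture and 1 empty vector culture was hybridised to 1 Affymetrix U133 array each. A description field of the labels names another cell line, CX-1, and for the PTHLH sample another gene, RAB3C, whereas the titles, the characteristics and the methods give Ca9-22 and PTHLH, and these were taken. RAB3C lay below both array medians, at 10.5 on the PTHLH array and 10.2 on the empty vector array.

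The intensities were linear values without a physical unit, and the array median was 19.4 for PTHLH and 19.5 for the empty vector. All 5 squamous epithelial markers measured, KRT5, KRT14, CDH1, EPCAM and DSP, lay above both medians, between 1093 and 10228 on the PTHLH array and between 1136 and 7823 on the empty vector array. The leukocyte markers PTPRC and CD14 lay below both medians, and CD3E was 19.4 on the PTHLH array and 20.2 on the empty vector array. The fibroblast gene COL1A1 was bright on both arrays (1652 on the PTHLH array and 2437 on the empty vector array). PDGFRB and the endothelial genes PECAM1 and VWF also lay above both medians, at 128 or less on the PTHLH array, whereas COL1A2, COL3A1 and CDH5 lay below them. The part of such genes in the results was not tested. With 1 array per condition there is no spread between cultures, so no p-value or SD over replicates can be given, and any other difference between the 2 cultures cannot be told apart from the vector. The only internal error is the disagreement between the 2 brightest probe sets of a gene, equivalent to a standard deviation (SD) of 0.20 per log2 difference across the 5594 genes whose 2 brightest probe sets both lay above the array medians.

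SR proteins carry an RNA recognition motif and a domain rich in arginine and serine, and by binding exonic enhancers they recruit the spliceosome and favour exon inclusion. The hnRNPs coat nascent RNA, often silence exons, and many also act in mRNA export, stability or translation. Paraspeckles are nuclear bodies that form on the long noncoding RNA NEAT1 and hold SFPQ, NONO and PSPC1. CLK kinases phosphorylate SR proteins and release them from nuclear speckles. In epithelial cells the ESRP proteins maintain an epithelial pattern of exon choice.

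By the brightest probe set of each gene, all 37 measured genes had a log2 difference above 0 between the PTHLH array and the empty vector array, against 48.5% of all 19775 genes. The median log2 difference was 0.39, with quartiles of 0.17 and 0.58 and values between 0.01 and 1.23, while the median over all genes was 0. A difference of at least 1.5-fold, the threshold that the study used, was reached by 8 of the 37 (21.6%) upward by the brightest probe set, against 1.97% of all genes, and by 0 of the 37 in the downward direction, against 3.52% of all genes. Every one of the 37 lay above the median of both arrays, so the 12982 genes that did so are the closer comparison, and of these 2.5% were at least 1.5-fold higher, 4.36% at least 1.5-fold lower and 49.3% had a difference above 0. A log2 difference as high as the members' median was found in 7.86% of these 12982 genes. Among the 4060 genes whose log2 level averaged 8 or more, the median log2 difference was 0.42 for the 32 members and 0.04 for all. These counts changed with how a gene was read, and no share over all genes is given for the other readings. By the median over its probe sets, 3 of the 37 were at least 1.5-fold higher, with a median of 0.27, and SFPQ, SRSF1, RBM14, HNRNPM and TRA2A were no longer among them, TRA2A lying at -0.12. Without probe sets of the suffix s or x, whose probes can bind several transcripts, 29 members were left, some of them read by a dim probe set. Of these 22 had a difference above 0, 7 one below 0, 4 were at least 1.5-fold higher and 1 was at least 1.5-fold lower, with a median of 0.17.

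**Figure D1:**
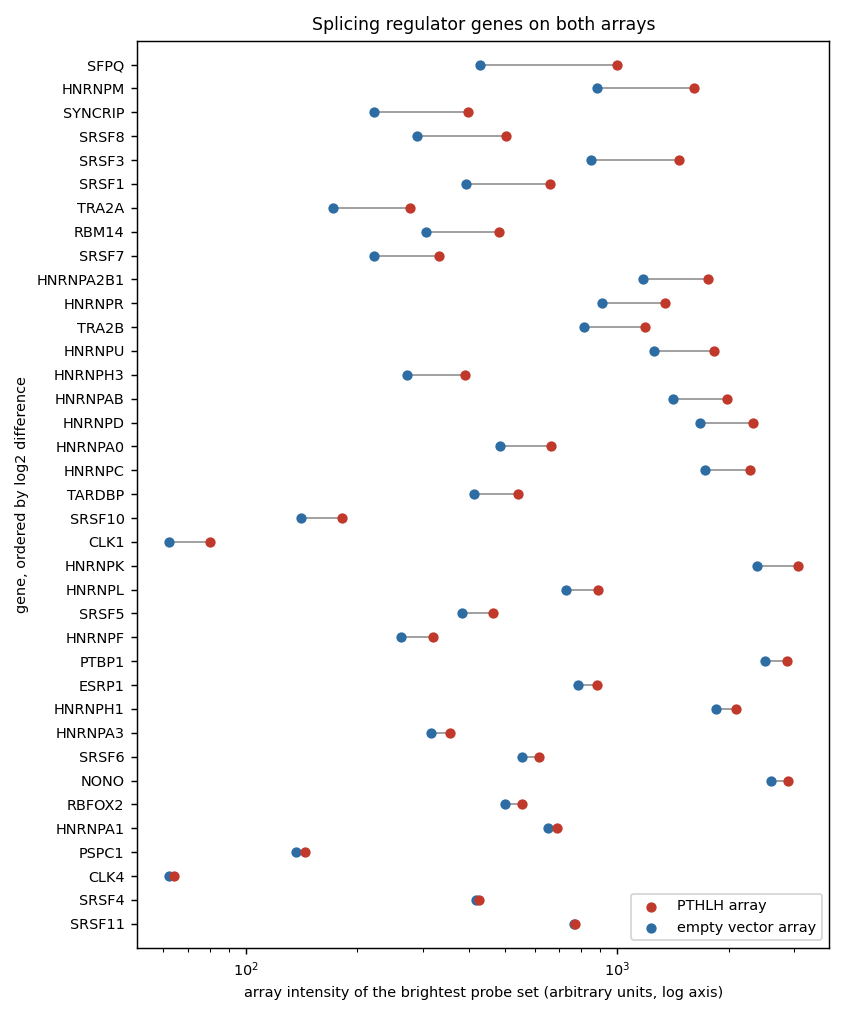
Array intensity (arbitrary units, log axis) of the brightest probe set of each of the 37 genes, with the PTHLH array in red and the empty vector array in blue, 1 array each, ordered by log2 difference. Every red point lies at or to the right of its blue point, from SFPQ at the top (2.35-fold) to SRSF11 at the bottom (1.01-fold), and levels of different genes are not comparable because each comes from its own probes.

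SFPQ, a DNA- and RNA-binding protein that paraspeckles cannot form without, had the largest difference of all measured members by the brightest probe set. That probe set (201586_s_at) had 1000.4 on the PTHLH array and 426 on the empty vector array, a 2.35-fold difference. Its second brightest probe set (201585_s_at) had 494 on the PTHLH array and 254 on the empty vector array, a log2 difference of 0.96. The other probe sets of SFPQ did not share this. Probe set 214016_s_at had 273 on the PTHLH array and 286 on the empty vector array, and 221768_at had 132 on the PTHLH array and 175 on the empty vector array, a log2 difference of -0.40. Both were bright, which here means above the median of both arrays, and the dim 226898_s_at had 16.1 against 12.2 on the PTHLH and empty vector arrays. Bright probe sets of SFPQ therefore fell on either side of 0, and the span between them was 1.63 on the log2 scale.

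The partners of SFPQ in the same protein family were nearly level by their brightest probe sets. NONO, which pairs with SFPQ in transcription, splicing and DNA repair, had 2885 on the PTHLH array and 2597 on the empty vector array, and its 3 probe sets had log2 differences between 0.09 and 0.15. PSPC1, the third member of that family, had 144 on the PTHLH array and 137 on the empty vector array, a log2 difference of 0.07, with -0.24 on its other probe set above both medians. RBM14, a coactivator that is also needed for paraspeckles, had 481 on the PTHLH array and 306 on the empty vector array (1.57-fold), but only 0.15 on the log2 scale by its second probe set. TARDBP encodes TDP-43, which binds UG-rich RNA and represses cryptic exons. It had 540.4 on the PTHLH array and 411 on the empty vector array, and its 2 probe sets above both medians had log2 differences of 0.39 and 0.25.

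Among the SR and TRA2 proteins, 11 of 12 genes were measured, with a median log2 difference of 0.54. In the upward direction 4 of them (36.4%) reached 1.5-fold, against 1.97% of all genes. SRSF3, the smallest SR protein and an adaptor for mRNA export, was the one whose bright probe sets all passed that fold. They had 1471 on the PTHLH array and 853 on the empty vector array (208672_s_at), 385 on the PTHLH array and 183 on the empty vector array (202899_s_at), and 343 on the PTHLH array and 122 on the empty vector array (208673_s_at). The fold differences were 1.73, 2.10 and 2.83, and the last is the highest of all 149 member probe sets. Its other 3 probe sets were dim, with log2 differences from -0.28 to 0.52.

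SRSF1, the SR protein first purified as a general splicing factor and able to transform cells when overproduced, had 658 on the PTHLH array and 393 on the empty vector array on its brightest probe set and 264 on the PTHLH array and 153 on the empty vector array on the next, which are log2 differences of 0.74 and 0.79. Its 3 other probe sets above both medians had 0.35, 0.24 and -0.05. SRSF8, a close relative of SRSF2 that arose as an intronless copy, had 502 on the PTHLH array and 289.8 on the empty vector array, and its 4 probe sets had log2 differences of 0.79, 0.76, 0.71 and 0.39. The brightest has the suffix x, which marks probes that may bind other transcripts, so signal from SRSF2 or another copy cannot be told apart in it. TRA2A and TRA2B are homologues of the fly factor Transformer-2 and bind GA-rich enhancers. TRA2A had 278 on the PTHLH array and 171 on the empty vector array (1.62-fold) on its brightest probe set, while its other 2 above both medians had log2 differences of -0.12 and -0.42. TRA2B had 1186 on the PTHLH array and 814 on the empty vector array, with log2 differences of 0.54 and 0.61 on its 2 bright probe sets, so the call of TRA2B at 1.5-fold depends on which of them is read.

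The remaining SR genes were within 1.5-fold by the brightest probe set. SRSF7, an SR protein with a zinc knuckle, lay just under the threshold at a log2 difference of 0.58 (332 against 221 on the PTHLH and empty vector arrays), and its 3 bright probe sets had log2 differences from 0.42 to 0.58. SRSF10, which turns into a splicing repressor when it loses its phosphates, had 182 on the PTHLH array and 141 on the empty vector array, a log2 difference of 0.37. Its 5 probe sets, all above both medians, agreed in sign, with 4 between 0.19 and 0.37 and 225348_at at 1.04 (74.1 against 36.2). SRSF5 and SRSF6 had log2 differences of 0.28 and 0.15, and the second probe set of SRSF6 had 0.57. SRSF4 (424 against 418 on the PTHLH and empty vector arrays) and SRSF11 (772 against 766) had the smallest differences of all measured members, 0.02 and 0.01. The other bright probe sets of SRSF11 had -0.03 and, on 213742_at, 0.46 (47.8 against 34.8). One dim probe set of SRSF4, 239512_at, had 6.61 against 4.40, a log2 difference of 0.59, both values far below the array medians.

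Of the 18 genes grouped here as hnRNPs, 17 were measured, with a median log2 difference of 0.45. At least 1.5-fold higher were 2 of them (11.8%), against 1.97% of all genes. HNRNPM, which binds GU-rich RNA and whose splicing targets include CD44, had 1616 on the PTHLH array and 882 on the empty vector array (200072_s_at) and 1217 on the PTHLH array and 743 on the empty vector array (1555844_s_at), log2 differences of 0.87 and 0.71. Its 4 other probe sets above both medians lay at 46.7 or less on the PTHLH array, with log2 differences from -0.22 to 0.05, among them 214918_at with an identical value on both arrays. SYNCRIP, also known as hnRNP Q, had 5 probe sets at least 1.5-fold higher, more than any other member. Its brightest had 398 on the PTHLH array and 222 on the empty vector array (1.79-fold). Of the other 4, 217834_s_at had 152 on the PTHLH array and 75.7 on the empty vector array, and the log2 differences of the remaining ones were 0.97, 0.98 and 0.82. In contrast, 217833_at had 298 on the PTHLH array and 245 on the empty vector array, a log2 difference of 0.28. HNRNPR, the closest paralogue of SYNCRIP, had 1346 on the PTHLH array and 909 on the empty vector array, and both of its bright probe sets had log2 differences of 0.57, just under 1.5-fold.

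The A/B-type hnRNPs differed among themselves. HNRNPA2B1, which like HNRNPA1 binds UAG motifs and silences exons, had 1758 on the PTHLH array and 1174 on the empty vector array on its brightest probe set, a log2 difference of 0.58, just under the threshold. Its probe set 225107_at had 119 on the PTHLH array and 187 on the empty vector array, a log2 difference of -0.66 and the only one of the 149 at least 1.5-fold lower. HNRNPAB had 1980.4 on the PTHLH array and 1415 on the empty vector array (log2 difference 0.49, 1 probe set). HNRNPA0 had 0.45 on its brightest and 0.04 and 0.08 on its other probe sets. HNRNPA3 had 0.17 on its brightest, 0.69 on a probe set of like intensity (367 against 228 on the PTHLH and empty vector arrays), and -0.19 on the third. HNRNPA1, whose many processed copies in the genome make its probe sets uncertain, had 690.5 on the PTHLH array and 653 on the empty vector array, a log2 difference of 0.08.

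In some hnRNPs all probe sets had nearly the same difference. HNRNPH3, of the family that binds runs of G, had 389 on the PTHLH array and 272 on the empty vector array, and its 4 probe sets, all bright, had log2 differences between 0.44 and 0.52. HNRNPK, which binds C-rich RNA, had 3071 on the PTHLH array and 2389.6 on the empty vector array, with 0.36 and 0.37 on its probe sets. HNRNPL, which binds CA repeats, had 891 on the PTHLH array and 729 on the empty vector array, with 0.29 and 0.33. Other hnRNPs had wider spans. HNRNPC, which covers U tracts and keeps splice-like Alu elements out of mRNA, had 2275 on the PTHLH array and 1728 on the empty vector array, and its 6 bright probe sets ranged from 0.28 to 0.60. HNRNPU, the scaffold attachment factor that organises chromatin with RNA, had 1826 on the PTHLH array and 1257 on the empty vector array, with 0.26 to 0.54 over 3 bright probe sets. HNRNPD, the AUF1 protein that promotes decay of AU-rich mRNAs, had 2328 on the PTHLH array and 1678 on the empty vector array. Of its 6 bright probe sets, 5 had log2 differences between 0.37 and 0.74, and 213359_at had 64.6 on the PTHLH array and 87.8 on the empty vector array, a log2 difference of -0.44. HNRNPF and HNRNPH1, relatives of HNRNPH3, had log2 differences of 0.28 and 0.17, and HNRNPH1 had 2087 against 1852 on the PTHLH and empty vector arrays.

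The factors tied to cell type, ESRP1 and RBFOX2, showed little difference. ESRP1, the epithelial splicing regulator, had 886 on the PTHLH array and 786 on the empty vector array, with log2 differences of 0.17 and 0.33 on its 2 probe sets. RBFOX2, which regulates exons in epithelial and mesenchymal cells, had 554 on the PTHLH array and 499 on the empty vector array, with 0.15 to 0.26 over its bright probe sets. PTBP1, the pyrimidine tract binding repressor, which is counted with the hnRNPs, had 2862 on the PTHLH array and 2508 on the empty vector array, a log2 difference of 0.19. Its other bright probe sets had -0.04 and 0.06, at only 23.1 and 22.1 on the PTHLH array. Among the kinases, CLK1 had 79.9 on the PTHLH array and 62.1 on the empty vector array on its only probe set, a log2 difference of 0.36, and CLK4 had 64.1 on the PTHLH array and 62.4 on the empty vector array, a difference of 0.04.

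**Figure D2:**
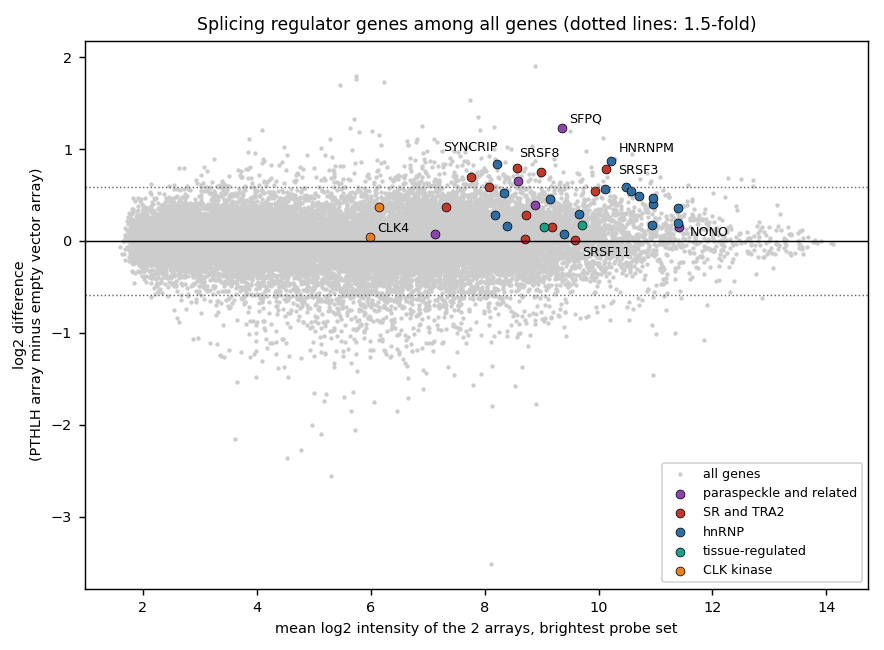
Log2 difference of PTHLH over empty vector (y axis) against the mean log2 intensity of both arrays (x axis), with all 19775 genes by their brightest probe set in grey and the 37 members coloured by class; dotted lines mark 1.5-fold. The members lie on or above 0 over their whole range of levels, with SFPQ the highest at 1.23.

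Over all 149 member probe sets, 25 (16.8%) passed 1.5-fold upward and 1 (0.671%) passed it downward, against 2% and 2.78% of all 41097 probe sets. The median log2 difference was 0.26 over the 149 and 0.34 over the 111 above both medians, against 0 and 0.01 over all probe sets of those 2 kinds. The 38 member probe sets that were not above both medians had a median of 0.08, and 1 of them was at least 1.5-fold higher. An identical value on both arrays was held by 6 of the 149 (4.03%), against 6.16% of all probe sets. A further 15 probe sets that pair a member with another gene, and so name no gene, had log2 differences from 0.20 to 0.77 with a median of 0.31.

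For 34 members the 2 brightest probe sets both lay above the array medians, and in 29 of these (85.3%) both had a difference above 0. Over all 5594 genes with such a pair, 69.0% had the same sign. The 2 shares are not matched, because the brightest probe set of every member already lay above 0. The members were also chosen with these arrays known. Computed from the members' pairs alone, the SD per log2 difference was 0.19. Of the 8 members at least 1.5-fold higher, 7 had a second probe set above 0, and in 5 of them it too passed 1.5-fold, which were SFPQ, SRSF1, SRSF3, SRSF8 and HNRNPM. These were 5 of 8 against 121 of 338 over all genes called in either direction with such a pair. All 8 were called upward, so this comparison is not matched either. In TRA2A the second probe set lay below 0.

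**Figure D3:**
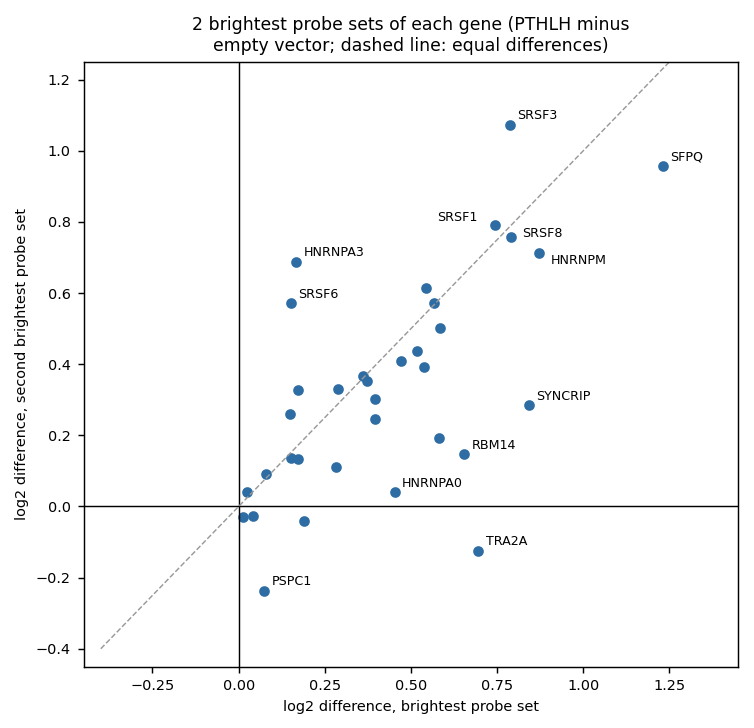
Log2 difference of PTHLH over empty vector for the second brightest probe set (y axis) against that of the brightest (x axis) for the 34 members whose 2 brightest probe sets both lie above the array medians; the dashed line marks equal differences. Of the 34 points, 29 lie above 0 on both axes, and TRA2A (0.70 and -0.12) lies farthest below the dashed line.

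Probe sets of one member could lie far apart. Among genes with at least 3 probe sets above both medians, the span between the highest and the lowest log2 difference was at least 1 in 5 of 21 members (23.8%), against 2.01% of 2186 genes, and the median span was 0.49 against 0.33. The 5 were SFPQ, TRA2A, HNRNPA2B1, HNRNPD and HNRNPM. A span can only widen with more probe sets, and their number was not matched between members and all genes. HNRNPD and HNRNPM had 6 bright probe sets each, SFPQ had 4, and TRA2A and HNRNPA2B1 had 3 each. A bright probe set at least 1.5-fold higher beside a bright one below 0 was found in 6 of the 21 (28.6%), against 3.02% of all such genes, namely in SFPQ, SRSF1, TRA2A, HNRNPA3, HNRNPD and HNRNPM. In SRSF1 (-0.05) and HNRNPA3 (-0.19) the value below 0 lay within the SD of 0.20 given above. This count needs a probe set that is higher, which 21.6% of bright member probe sets were, against 2.72% of all bright ones. It is therefore no measure of disagreement alone. Which part of a transcript each probe set reads was not analysed here.

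Other genes of RNA processing, from 7 lists that hold no member, had medians above 0 and below those of the SR and hnRNP groups, a difference that was not tested. The medians of the tissue-regulated members (0.16) and the CLK kinases (0.20) lay within the range of these lists. Of 37 measured core spliceosome genes, 31 had a difference above 0 with a median of 0.26. In this list 1 gene (2.70%) was at least 1.5-fold higher, near the 1.97% of all genes. None was at least 1.5-fold lower, against 3.52% of all genes. The 1 was SF3B3, a subunit of the U2 snRNP (489 against 295 on the PTHLH and empty vector arrays, log2 difference 0.73, and 0.56 on its other probe set). Other paraspeckle components had a median of 0.29 over 13 genes, and 2 (15.4%) were at least 1.5-fold higher, against 1.97% of all genes. These were RBM3, a cold-induced RNA-binding protein (268 against 147, 0.87, and 0.51 on its other probe set), and UBAP2L (477 against 318, 0.59, with a range over 4 probe sets of -0.15 to 0.66). Other SR-related proteins had a median of 0.19 over 14 genes, and 2 (14.3%) passed that fold upward, against the same 1.97%. At least 1.5-fold higher were LUC7L2, which associates with the U1 snRNP (246 against 154, 0.68, and 0.47 on its other probe set), and ACIN1, a partner of the exon junction complex (174 against 111, 0.65).

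Lists nearer to 0 were the SR protein kinases (median 0.07 over 10 genes), other hnRNP-like proteins (0.08 over 19) and factors of nonsense-mediated decay (0.14 over 8), none with a gene at least 1.5-fold changed in either direction by its brightest probe set. Among the hnRNP-like genes, chosen after their values were seen, single probe sets did pass 1.5-fold, with log2 differences of 1.28 in HNRNPDL, 0.64 in PCBP2, 0.62 in EWSR1 and -0.93 in ELAVL1. Genes of some other lists also had single probe sets past that fold. Upward these included SNRPD1 (0.84) and TIAL1 (0.67), and downward SREK1 (-1.15) and SMARCA4 (-0.66). SRPK1, the main cytoplasmic SR protein kinase, had 146 against 161 on the PTHLH and empty vector arrays, a log2 difference of -0.14. Other tissue-regulated factors had a median of 0.08 over 22 genes and held both directions. MBNL3, a muscleblind protein, was higher (281 against 144, log2 difference 0.97), with a range over its 3 probe sets of 0.19 to 0.97. RBM24, a regulator of muscle exons, and RBFOX3, a neuronal relative of RBFOX2, were lower, at 29.7 against 70.7 (-1.25) and 24.1 against 56.3 (-1.23). RBM24 had 1 probe set, and on the PTHLH array both genes lay not far above the array median of 19.4. The 3 probe sets of RBFOX3 ranged from -1.23 to 0.10. Over all 7 lists together, 6 of 123 measured genes (4.88%) were at least 1.5-fold higher and 2 (1.63%) at least 1.5-fold lower. The shares over all genes were 1.97% and 3.52%. The median log2 difference of the lists together was 0.20.

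Promoters of the members were also read, from a table of RefSeq promoters (GRCh38.p14). A 300-base window from 250 bases before the transcription start to 50 after it was matched for 33 of the 40 genes. The first listed start was used. SFPQ, SRSF2, TRA2A, HNRNPA1, ESRP1, ESRP2 and RBFOX2 were not matched. Windows are shown for 4 members that were at least 1.5-fold higher (HNRNPM, SYNCRIP, SRSF3 and SRSF1) and for the 2 with the smallest difference (SRSF11 and SRSF4), 5′ to 3′ on the gene's strand. Capitals mark the letters TGACG, a half-site of the cAMP response element, CACGTG, the E-box bound by MYC-type factors, and TGTGGT, the core bound by RUNX factors, on either strand.
HNRNPM (chr19:8444725-8445024, + strand): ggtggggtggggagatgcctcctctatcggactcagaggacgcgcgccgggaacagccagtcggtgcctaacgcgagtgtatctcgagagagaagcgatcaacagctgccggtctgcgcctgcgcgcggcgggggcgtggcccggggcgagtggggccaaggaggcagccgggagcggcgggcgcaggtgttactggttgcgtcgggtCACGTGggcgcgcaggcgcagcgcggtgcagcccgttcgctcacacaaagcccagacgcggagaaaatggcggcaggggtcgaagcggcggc
SYNCRIP (chr6:85643821-85644120, - strand): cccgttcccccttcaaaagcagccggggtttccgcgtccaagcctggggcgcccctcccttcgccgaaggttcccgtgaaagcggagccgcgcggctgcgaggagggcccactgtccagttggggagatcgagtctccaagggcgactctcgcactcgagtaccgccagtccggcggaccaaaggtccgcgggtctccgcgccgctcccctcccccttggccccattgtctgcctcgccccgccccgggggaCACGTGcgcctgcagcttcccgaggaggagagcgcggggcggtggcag
SRSF3 (chr6:36594112-36594411, + strand): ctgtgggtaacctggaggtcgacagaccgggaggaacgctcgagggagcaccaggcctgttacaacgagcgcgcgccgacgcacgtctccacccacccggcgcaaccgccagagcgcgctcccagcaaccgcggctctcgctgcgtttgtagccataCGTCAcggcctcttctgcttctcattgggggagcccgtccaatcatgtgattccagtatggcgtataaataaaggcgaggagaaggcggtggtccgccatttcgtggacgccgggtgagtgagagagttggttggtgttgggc
SRSF1 (chr17:58007197-58007496, - strand): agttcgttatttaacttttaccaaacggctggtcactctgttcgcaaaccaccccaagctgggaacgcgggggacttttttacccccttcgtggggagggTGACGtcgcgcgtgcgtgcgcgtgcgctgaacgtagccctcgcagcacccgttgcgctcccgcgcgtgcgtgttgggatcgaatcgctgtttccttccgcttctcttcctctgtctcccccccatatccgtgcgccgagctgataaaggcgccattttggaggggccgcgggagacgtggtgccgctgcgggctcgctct
SRSF11 (chr1:70221130-70221429, + strand): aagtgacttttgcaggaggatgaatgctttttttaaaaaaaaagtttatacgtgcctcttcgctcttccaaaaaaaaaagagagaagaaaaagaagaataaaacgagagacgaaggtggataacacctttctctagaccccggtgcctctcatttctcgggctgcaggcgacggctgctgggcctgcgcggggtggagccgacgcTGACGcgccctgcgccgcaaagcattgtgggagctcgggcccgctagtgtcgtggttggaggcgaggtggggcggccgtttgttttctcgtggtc
SRSF4 (chr1:29181851-29182150, - strand): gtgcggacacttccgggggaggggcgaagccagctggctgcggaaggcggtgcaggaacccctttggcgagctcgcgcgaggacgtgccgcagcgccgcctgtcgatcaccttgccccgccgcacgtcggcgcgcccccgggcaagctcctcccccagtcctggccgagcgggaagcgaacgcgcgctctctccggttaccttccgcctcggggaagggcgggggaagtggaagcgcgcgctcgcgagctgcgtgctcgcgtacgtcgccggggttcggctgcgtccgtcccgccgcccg

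The HNRNPM window held 1 E-box with its first base 42 bases before the start, and the SYNCRIP window held 1 at base 3 after it. TGACG lay 93 bases before the start in SRSF3, on the opposite strand, 150 before it in SRSF1 and 45 before it in SRSF11. SRSF4 held none of the 3. Nor did RBM14 and SRSF8, whose windows are not shown although both genes were at least 1.5-fold higher. Over the 33 windows, TGACG was found in 14 (42.4%), against 29.5% of 15843 protein-coding genes with a window. The full element TGACGTCA, which contains TGACG, was found in none, against 2.59% of protein-coding genes. CACGTG was found in 7 (21.2%), against 8.88% of protein-coding genes, and TGTGGT in 2 (6.06%), against 10.8%. ATGGCGG, a core of YY1 sites, was found in 7 (21.2%), against 7.63%, and CCAAT in 16 (48.5%), against 36.4%. Both E2F octamers searched, TTTCGCGC and TTTGGCGC, were found in none, against 0.81% and 0.89%. In all, 12 motifs were searched. CCGGAAG, a core of ETS sites, was found in 4 (12.1%), against 14.2%, and the NRF1 letters GCATGCGC in 2 (6.06%), against 4.26%. The GC box GGGCGG was found in 21 (63.6%), against 58.5%, and TATAAA in 5 (15.2%), against 9.63%. Of the 6 windows that belong to members at least 1.5-fold higher, 2 held TGACG and 2 held CACGTG. The median GC content was 63.3% over the 33 windows and 62.7% over protein-coding genes. These matches are a description of letters and were not tied to the differences by any test.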

How the data were processed

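One PTHLH and one empty vector culture of Ca9-22 cells gave 1 Affymetrix U133 array each, grouped by titles and characteristics. The authors deposited intensity values on a linear scale. How they corrected background, normalized and summarised probes is not stated in the labels or methods read for this work. The log2 intensity of the empty vector array was taken from that of the PTHLH array, with no further scaling. Names came from the platform annotation, brought up to date by gene identifier with RefSeq (GRCh38.p14). Of the probe sets, 41097 with 1 symbol were used, while 1801 with several and 11777 that are unnamed here were left out. PTHLH itself is not analysed here. Each gene was read from its brightest probe set, the one with the highest mean log2 intensity, and differences of at least 1.5-fold were counted. A single array per condition has no replicate spread, so no test was run, and precision is limited by the number of arrays.

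The members and the 7 related lists were chosen with earlier results of these data known. All members are named, and by rule so are up to 6 genes of each related list that changed at least 1.5-fold and lay above the median of at least 1 array. SRPK1, HNRNPDL, PCBP2, EWSR1, ELAVL1, SNRPD1, TIAL1, SREK1 and SMARCA4 were named outside that rule, after their values were seen. The motifs, the printed windows and the counts of disagreement between probe sets were also chosen after values had been seen. The alternatives were quantile normalization, centring on brighter probe sets, reading a gene by the median or by the largest change of its probe sets, dropping dim probe sets, flooring each array at percentile 40, dropping suffix x, or x and s, and a 2-fold threshold. Reading the second brightest probe set was added after seeing the data. The scripts were tested on simulated data and ran under Python 3.11.15 with pandas 2.3.3, numpy 2.4.6 and matplotlib 3.10.9.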

Additional observations from a re-analysis of the deposited data

How the results depend on the processing

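Quantile normalization, centring, leaving out dim probe sets, the floor and leaving out suffix x kept the count of members at least 1.5-fold higher between 8 and 11 of 37, with none lower. These scalings moved the median of all genes by at most 0.02. With the median over probe sets 3 of 37 were higher and the median log2 difference was 0.27. With the largest change, a reading that can only add calls, 14 were higher and 1 was lower, with a median of 0.54. Without suffix x or s, 29 genes were left, of which 4 were higher and 1 lower, with a median of 0.17, and over probe sets 8 of 68 were higher, with a median of 0.14. At 2-fold, 1 member was higher, and 5 probe sets were higher and 0 lower. The second brightest probe set gave 7 of 34 higher. No share over all genes is given for these alternatives, so their counts have no matching background. Without suffix x or s, 7 of the 29 lay below 0. These were HNRNPA2B1 at -0.66, SFPQ at -0.40, HNRNPR at -0.40, HNRNPM at -0.22 and PTBP1, SRSF11 and CLK4 between -0.04 and -0.03. HNRNPR was then read from a dim probe set (17.4 against 22.9 on the PTHLH and empty vector arrays). HNRNPM was read from a probe set at 31.4 against 36.6, far below its brightest. TRA2A was -0.12 with the median over probe sets and with the second brightest. Below 0 lay 2 of 37 members under quantile normalization and none under centring. The fall in counts without suffix s comes with fewer probe sets, and its cause was not tested. No paired analysis was possible because each condition has 1 array.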
